A study of Homo sapiens with 7 samples.

Results

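The genes described here are 52 human genes of the kinetochore, the mitotic spindle and cytokinesis, measured on 7 splice arrays. They were chosen by name, with earlier results of these data known. Every row of the deposited table whose leading number is the NCBI Gene ID of such a gene was taken as one of its probe sets. Each gene was given the median log2 value of its kept probe sets, those with a mean above 2.95 over the 7 arrays. All 52 genes had a value, among 18017 genes with one. They rested on 27 to 255 kept probe sets each, 5343 of 9340 in all. By role, 19 genes act at the kinetochore, 11 are kinesins, 8 act in cytokinesis or the chromosomal passenger complex, 7 in spindle assembly and 7 in anaphase and mitotic exit.

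Total RNA came from HCT116, a human colon carcinoma cell line, and was hybridised to the ExonHit Human Splice Array, whose probe sets cover exons and exon junctions. The CPT late group holds 2 arrays of cells exposed to 10 µM camptothecin (CPT) for 15 and 20 h. The CPT early group holds 3 arrays, at 1, 2 and 4 h of the same dose, and the DMSO group holds 2 arrays of cells given the solvent alone, at 0.1%, for 4 and 20 h. Camptothecin traps topoisomerase I, the enzyme that relaxes DNA ahead of polymerases, on the DNA it has nicked, and the study asked how this affects splicing. No time point was repeated, and the labels do not say that the arrays came from separate cultures. A p-value therefore measures the spread of arrays that differ in time, which may be technical, and the small number of arrays limits precision.

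The kinetochore is the protein structure that joins each chromosome to spindle microtubules. Its outer layer holds the NDC80 complex, which grips the microtubule, and the checkpoint kinases and adaptors that delay anaphase until all chromosomes are attached. Mitotic kinesins move along or take apart microtubules, the chromosomal passenger complex corrects attachments, and a central spindle built from KIF23, RACGAP1 and PRC1 guides the cleavage furrow. In dividing cells most of these genes are transcribed in late S, G2 and M phase. Their promoters are known to be read by the DREAM and MuvB complexes through a short element called the cell cycle genes homology region (CHR), often with CCAAT boxes upstream that bind NF-Y.

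Promoter windows are shown because this shared element was not used to choose the genes. RefSeq promoters of assembly GRCh38.p14, which run from 250 bases before to 50 bases after a gene's start, were given for 42 of the 52 genes. The CHR was searched as TTTGAA or TTCGAA and the CCAAT box as CCAAT, both on either strand, with overlapping matches allowed. A CHR match lay in 31 of the 42 promoters (73.8%), against 1768 of the 14072 promoters of all tested genes (12.6%). A CCAAT match lay in 32 of the 42 (76.2%), against 36.2% of all promoters. In a shorter window of 130 bases, from 120 before to 10 after the start, chosen after the data were seen, the CHR shares were 59.5% and 4.67%. In the full promoter a CHR lay in 25 of 33 genes lower in CPT late cells and in 6 of 9 others, and in the shorter window in 19 of 33 and again in 6 of 9. By role, a CHR match was found for 10 of 15 kinetochore genes, 9 of 11 kinesins, 5 of 6 cytokinesis and passenger genes, 4 of 5 spindle genes and 3 of 5 anaphase genes with a promoter entry. A match is a description of these letters and does not show that a factor binds there.

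The windows of 130 bases below show where the element lies in 5 genes that were lower in CPT late cells (BUB1B, KIF23, ECT2, HMMR, CDC20) and in INCENP, which did not pass the test, beside FBXO5 and SPC24, which hold none. They do not stand for the lower and other genes at large: in this window CENPF, CENPE, MAD2L1 and NUF2 were lower and hold none, and ZWINT, CDCA3, ESPL1, KIF22 and KIF18B hold one and did not pass. Capitals mark every CHR and CCAAT match, and each is written in the direction of transcription.
BUB1B, chr15:40160949-40161078, plus strand: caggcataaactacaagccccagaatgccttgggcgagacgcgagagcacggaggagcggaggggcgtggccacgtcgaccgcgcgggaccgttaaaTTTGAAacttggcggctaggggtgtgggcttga
KIF23, chr15:69414229-69414358, plus strand: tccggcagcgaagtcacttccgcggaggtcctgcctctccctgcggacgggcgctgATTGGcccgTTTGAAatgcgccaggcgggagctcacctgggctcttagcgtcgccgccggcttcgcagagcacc
ECT2, chr3:172750606-172750735, plus strand: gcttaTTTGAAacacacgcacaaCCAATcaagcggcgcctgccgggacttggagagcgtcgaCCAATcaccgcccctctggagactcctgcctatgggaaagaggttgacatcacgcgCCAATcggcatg
HMMR, chr5:163460512-163460641, plus strand: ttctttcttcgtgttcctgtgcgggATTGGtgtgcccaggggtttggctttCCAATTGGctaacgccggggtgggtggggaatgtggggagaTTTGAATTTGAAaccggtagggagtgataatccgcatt
CDC20, chr1:43358861-43358990, plus strand: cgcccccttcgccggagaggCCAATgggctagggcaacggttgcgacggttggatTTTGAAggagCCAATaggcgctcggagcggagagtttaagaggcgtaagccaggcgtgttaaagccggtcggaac
INCENP, chr11:62123891-62124020, plus strand: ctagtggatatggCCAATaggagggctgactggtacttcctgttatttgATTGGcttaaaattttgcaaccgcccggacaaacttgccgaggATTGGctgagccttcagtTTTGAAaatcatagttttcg
FBXO5, chr6:152983570-152983699, minus strand: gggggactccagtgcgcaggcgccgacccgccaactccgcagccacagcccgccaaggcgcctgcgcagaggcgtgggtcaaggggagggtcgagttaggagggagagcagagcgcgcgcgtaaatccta
SPC24, chr19:11155773-11155902, minus strand: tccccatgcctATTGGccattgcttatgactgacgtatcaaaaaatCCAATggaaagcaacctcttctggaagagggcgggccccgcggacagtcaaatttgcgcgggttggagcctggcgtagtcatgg

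In CPT late cells 42 of the 52 genes were lower than in DMSO cells by limma at an adjusted p under 0.05, and 1, FBXO5, was higher. Over all tested genes 17.5% were lower and 33.5% were higher. The median difference of the 52 genes was -1.70, where the median of all tested genes was 0.34. Single genes lay between -3.73 for CENPF and 1.03 for FBXO5. Among the lower genes 21 were more than 4-fold lower, 8 of them more than 8-fold. For 46 genes both late arrays lay below both DMSO arrays, which held for 23.8% of all tested genes. The groups overlapped for 4 genes, and only for FBXO5 and BIRC5 did both late arrays lie above both DMSO arrays. Over all tested genes both late arrays lay above both DMSO arrays for 9846 of 18017. Fewer cells in the phases that express these genes and less RNA per cell cannot be told apart in bulk RNA.

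**Figure D1:**
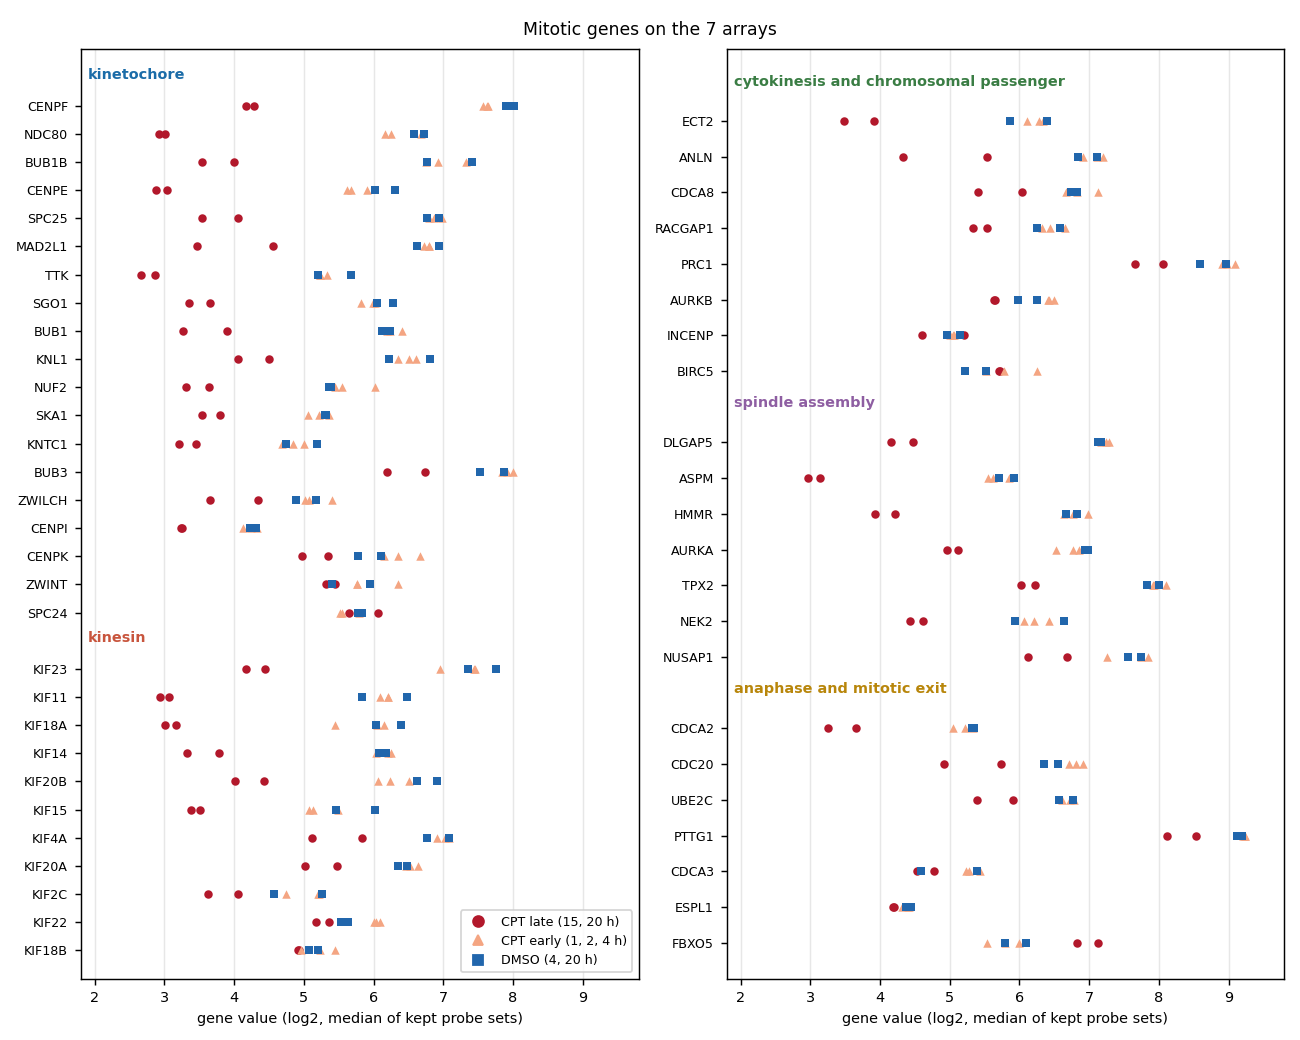
Gene values (log2, median of kept probe sets, horizontal axis) of the 52 genes, grouped by role and sorted within a role by the CPT late minus DMSO difference. Each point is 1 array: red circles are CPT at 15 and 20 h, pale triangles CPT at 1, 2 and 4 h, and blue squares DMSO at 4 and 20 h. For 46 genes both red circles lie left of both blue squares, and FBXO5 and BIRC5 have them to the right.

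Of the kinetochore genes, 17 of 19 were lower in CPT late cells and none was higher, with a median difference of -2.23. CENPF, a large protein of the fibrous corona, stood at 4.28 and 4.17 at 15 and 20 h of CPT, against 7.64, 7.63 and 7.57 at 1, 2 and 4 h and 8.02 and 7.89 in DMSO cells. The late arrays lay far below all others, and the early and DMSO arrays did not overlap. Its late level was 13.3-fold lower than in DMSO cells (log2 difference -3.73 ± 0.19, SE, adjusted p = 1.7e-05). NDC80, the microtubule-binding subunit that names its complex, had values of 3.01 and 2.92 in CPT late cells, against 6.68, 6.25 and 6.16 in CPT early cells and 6.73 and 6.57 in DMSO cells. It was 12.9-fold lower in CPT late than in DMSO cells (log2 difference -3.69, adjusted p = 1.9e-05), with early and DMSO values that overlapped. With no filter on dim probe sets that difference was -2.08. BUB1B, which encodes the checkpoint protein BubR1, had values of 4.00 and 3.54 in CPT late cells, against 7.33, 6.93 and 6.76 in CPT early cells and 7.41 and 6.76 in DMSO cells. Its difference from DMSO was -3.32 ± 0.29 (SE, adjusted p = 4.7e-05). CENPE, a kinesin that carries chromosomes to the spindle equator, had values of 3.04 and 2.88 in CPT late cells, against 5.90, 5.62 and 5.68 in CPT early cells and 6.31 and 6.02 in DMSO cells. The late arrays of both genes lay at least 2 log2 units below every other array. With no filter the difference of CENPE was -1.23, against -3.21 with it.

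The partners of NDC80 in its complex did not all move together. SPC25 and NUF2 were lower in CPT late than in DMSO cells, with log2 differences of -3.05 and -1.90. SPC24, which pairs with SPC25, had values of 6.07 and 5.65 in CPT late cells, against 5.54, 5.52 and 5.78 in CPT early cells and 5.84 and 5.77 in DMSO cells. Its groups overlapped, and the difference of 0.06 ± 0.22 (SE) did not pass (adjusted p = 0.84). The checkpoint genes MAD2L1, TTK, BUB1 and BUB3 fell, with log2 differences of -2.78, -2.68, -2.60 and -1.23 between CPT late and DMSO cells. With no filter TTK and BUB1 had differences of -1.04 and -1.65. SGO1, which protects centromeric cohesion, and KNL1, the scaffold that recruits BUB proteins, had differences of -2.66 and -2.23. KNTC1 and ZWILCH, subunits of the complex that brings dynein to kinetochores, had differences of -1.63 and -1.03, and SKA1, of a microtubule-tracking complex, -1.64. With no filter that of KNTC1 was -0.63. ZWINT, which links that dynein recruiter to the scaffold, had values of 5.45 and 5.31 in CPT late cells, against 5.76, 6.35 and 5.76 in CPT early cells and 5.95 and 5.41 in DMSO cells. Its groups overlapped and its difference of -0.29 ± 0.27 (SE) did not pass (adjusted p = 0.37). The inner kinetochore genes CENPI and CENPK were lower, with differences of -1.02 and -0.77. The call of CENPI was lost with a stricter filter on dim probe sets (-0.26; with no filter the difference was -0.34), and that of CENPK if either the 4 h DMSO array (-0.61) or the 20 h CPT array (-0.59) was left out. The call of ZWILCH was lost with no filter on dim probe sets (-0.31) and on leaving out the 4 h DMSO array (-0.89) or the 20 h CPT array (-0.69). With the mean of kept probe sets CENPI and ZWILCH both had differences of -0.68.

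Of the kinesins, 9 of 11 were lower in CPT late cells and none was higher, with a median difference of -2.29. KIF23, the motor of the central spindle, had values of 4.44 and 4.17 in CPT late cells, against 7.44, 7.45 and 6.95 in CPT early cells and 7.75 and 7.35 in DMSO cells. Its late level was 9.47-fold lower than in DMSO cells (adjusted p = 2.8e-05). KIF11, the motor that pushes spindle poles apart, had values of 3.06 and 2.94 in CPT late cells, against 6.09, 6.21 and 6.21 in CPT early cells and 6.48 and 5.84 in DMSO cells. The early values of KIF11 lay inside the range of its DMSO values, and the late ones far below (-3.16 ± 0.23, SE, adjusted p = 2.6e-05). KIF18A, which shortens kinetochore microtubules, had values of 3.01 and 3.17 in CPT late cells, against 6.05, 6.15 and 5.45 in CPT early cells and 6.40 and 6.04 in DMSO cells. KIF14, a motor of the midbody, had values of 3.78 and 3.32 in CPT late cells, against 6.25, 6.20 and 6.04 in CPT early cells and 6.184 and 6.085 in DMSO cells. Both were lower in CPT late than in DMSO cells, with differences of -3.13 ± 0.26 and -2.58 ± 0.22 (SE, adjusted p = 4e-05 and 4.1e-05). With no filter on dim probe sets the differences of KIF23, KIF18A and KIF14 were -1.78, -2.003 and -1.31.

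KIF20B and KIF15, 2 further motors of dividing cells, were lower in CPT late than in DMSO cells, with differences of -2.55 and -2.29, and of -1.40 and -1.17 with no filter. KIF4A, a chromosome-bound motor, KIF20A, which carries the passenger complex to the midzone, and KIF2C, which takes microtubules apart, had differences of -1.44, -1.17 and -1.08 and were also lower. The call of KIF2C was lost on leaving out the 4 h DMSO array (-0.74) or the 15 h CPT array (-0.87). KIF22, a chromosome-arm motor, had values of 5.18 and 5.36 in CPT late cells, against 6.01, 6.09 and 6.03 in CPT early cells and 5.63 and 5.53 in DMSO cells. Its late arrays lay below both DMSO arrays, but the difference of -0.31 ± 0.19 (SE) did not pass (adjusted p = 0.19). With a stricter filter or with the mean of the kept probe sets it did pass (-0.51 and -0.57). KIF18B had values of 4.91 and 4.93 in CPT late cells, against 5.44, 5.23 and 4.96 in CPT early cells and 5.20 and 5.07 in DMSO cells. Its late arrays lay below the others by little, and its difference from DMSO did not pass (-0.22 ± 0.21, SE, adjusted p = 0.39). Its probe sets are not listed in the platform annotation and were named by gene number alone.

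Of the cytokinesis and passenger genes, 5 of 8 were lower in CPT late cells and none was higher, with a median difference of -0.95. Motors of the central spindle and midbody, such as KIF23, KIF14 and KIF20A, were counted with the kinesins and not here. ECT2, the exchange factor that activates RhoA at the furrow, had values of 3.92 and 3.48 in CPT late cells, against 6.11, 6.34 and 6.28 in CPT early cells and 6.40 and 5.86 in DMSO cells. It was 5.38-fold lower in CPT late than in DMSO cells (adjusted p = 8.5e-05). ANLN, which encodes the actin-binding furrow protein anillin, had values of 5.54 and 4.34 in CPT late cells, against 7.12, 6.91 and 7.19 in CPT early cells and 7.11 and 6.85 in DMSO cells. The late arrays of ANLN differed from each other by -1.20 (20 h minus 15 h), the widest such gap among the 52 genes, and both lay below all others (-2.04 ± 0.34, SE, adjusted p = 0.0013). RACGAP1, the partner of KIF23, had values of 5.54 and 5.34 in CPT late cells, against 6.44, 6.32 and 6.66 in CPT early cells and 6.58 and 6.25 in DMSO cells. PRC1, which bundles midzone microtubules, had a difference of -0.91 and RACGAP1 one of -0.98. Without the 4 h DMSO array neither passed (-0.73 with adjusted p = 0.0501 for PRC1, and -0.82 with adjusted p = 0.0506 for RACGAP1), and PRC1 also did not pass with no filter on dim probe sets (-0.36).

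The 4 genes of the chromosomal passenger complex in the list differed from each other. CDCA8, which encodes borealin, had values of 6.04 and 5.41 in CPT late cells, against 7.12, 6.67 and 6.82 in CPT early cells and 6.83 and 6.74 in DMSO cells. It was lower in CPT late than in DMSO cells (-1.06 ± 0.26, SE, adjusted p = 0.0088), a call lost on leaving out the 4 h DMSO array (-1.01) or the 20 h CPT array (-0.74). AURKB, the kinase of the complex, had values of 5.64 and 5.65 in CPT late cells, against 6.42, 6.41 and 6.50 in CPT early cells and 6.26 and 5.98 in DMSO cells. Its late arrays lay below all others, but the difference from DMSO of -0.47 ± 0.20 (SE) did not pass (adjusted p = 0.071). It passed with each array centred on its median (-0.72) and without the intensity trend (adjusted p = 0.044). INCENP, the scaffold, had values of 5.20 and 4.61 in CPT late cells, against 5.05, 4.999 and 5.07 in CPT early cells and 5.15 and 4.96 in DMSO cells. These overlapped, and the difference of -0.15 ± 0.22 (SE) did not pass (adjusted p = 0.57). BIRC5, which encodes survivin, had values of 5.72 and 5.71 in CPT late cells, against 5.52, 5.78 and 6.25 in CPT early cells and 5.52 and 5.21 in DMSO cells. Both CPT groups lay mostly above DMSO, and the late difference of 0.35 ± 0.26 (SE) did not pass (adjusted p = 0.27).

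All 7 spindle assembly genes were lower in CPT late cells, with a median difference of -1.92. DLGAP5, also called HURP, a microtubule-bundling protein, had values of 4.48 and 4.16 in CPT late cells, against 7.24, 7.18 and 7.29 in CPT early cells and 7.13 and 7.16 in DMSO cells. It was 7.09-fold lower in CPT late than in DMSO cells (adjusted p = 2.5e-05). The platform annotation gives its probe sets another symbol, and they were named here by gene number. ASPM, a spindle pole protein, had values of 3.13 and 2.97 in CPT late cells, against 5.84, 5.63 and 5.55 in CPT early cells and 5.92 and 5.71 in DMSO cells. HMMR, a spindle protein and hyaluronan receptor, had values of 4.21 and 3.92 in CPT late cells, against 6.63, 6.77 and 6.98 in CPT early cells and 6.83 and 6.66 in DMSO cells. Their differences from DMSO were -2.76 ± 0.19 and -2.68 ± 0.22 (SE), with no overlap between late and other arrays. With no filter they were -1.09 and -1.15, and that of DLGAP5 was -1.78 in place of -2.83. AURKA, the kinase of spindle poles, had values of 4.97 and 5.12 in CPT late cells, against 6.77, 6.86 and 6.53 in CPT early cells and 6.99 and 6.95 in DMSO cells. It was 3.80-fold lower in CPT late than in DMSO cells (adjusted p = 0.00012). TPX2, the activator of AURKA, NEK2, a centrosome kinase, and NUSAP1, which binds microtubules near chromosomes, were also lower, with differences of -1.79, -1.76 and -1.25. That of NEK2 was -0.82 with no filter.

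Of the anaphase and mitotic exit genes, 4 of 7 were lower and 1 was higher in CPT late cells, with a median difference of -0.83. CDCA2, which brings a phosphatase to chromatin, had values of 3.65 and 3.26 in CPT late cells, against 5.22, 5.34 and 5.05 in CPT early cells and 5.35 and 5.33 in DMSO cells. CDC20, the activator of the anaphase-promoting complex, had values of 5.73 and 4.91 in CPT late cells, against 6.91, 6.70 and 6.82 in CPT early cells and 6.56 and 6.35 in DMSO cells. UBE2C, the ubiquitin-conjugating enzyme of that complex, had values of 5.40 and 5.91 in CPT late cells, against 6.72, 6.61 and 6.78 in CPT early cells and 6.77 and 6.57 in DMSO cells. All 3 had late arrays below every other array, with differences from DMSO of -1.88, -1.13 and -1.01, as did PTTG1, the securin that holds separase back (-0.83, and -1.36 with no filter). For CDC20 the call was lost on leaving out the 4 h DMSO array (-1.03) or the 20 h CPT array (-0.72).

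FBXO5, also called EMI1, an inhibitor of the anaphase-promoting complex, had values of 6.83 and 7.13 in CPT late cells, against 5.79, 5.54 and 5.99 in CPT early cells and 5.79 and 6.09 in DMSO cells. The late arrays lay above all others, and the late level was 2.05-fold higher than in DMSO cells (1.03 ± 0.23, SE, adjusted p = 0.0065). It rested on 27 kept probe sets, and the call was lost with no filter (0.62), with a stricter filter (0.51) and without the 4 h DMSO array (0.89). With the mean of kept probe sets it was 0.58 and still passed. CDCA3, a trigger of mitotic entry, had values of 4.53 and 4.77 in CPT late cells, against 5.28, 5.43 and 5.23 in CPT early cells and 4.59 and 5.39 in DMSO cells. Its DMSO arrays lay further apart than its groups did, and it passed only when the 4 h DMSO array was left out (-0.74). ESPL1, the separase that opens cohesin rings, had values of 4.21 and 4.19 in CPT late cells, against 4.32, 4.40 and 4.42 in CPT early cells and 4.44 and 4.38 in DMSO cells. The late arrays lay below all others, and the difference of -0.21 ± 0.16 (SE) did not pass (adjusted p = 0.27), but did with the mean of kept probe sets (-0.35), after quantile re-normalization (-0.47) and with centred arrays (-0.46).

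Within 4 h of CPT none of the 52 genes differed from DMSO cells by limma, in either direction, where 0.0611% of all tested genes were lower and 0.0222% were higher. At an unadjusted p under 0.05 there were 4 genes (7.69%), KIF22, CENPE, KIF15 and KIF20B, against 7.26% of all tested genes, and the lowest adjusted p was 0.62. The median difference was 0.03, with single genes between -0.50 (KIF15) and 0.48 (BIRC5). Against the early CPT arrays, 45 of the 52 genes were lower in CPT late cells and 1, FBXO5, was higher (1.20). Over all tested genes 18.3% were lower and 36.3% were higher, and both late comparisons use the same 2 late arrays. The 42 genes lower than in DMSO cells were among the 45, and the other 3 were KIF22, AURKB and CDCA3, with differences from CPT early cells of -0.77, -0.79 and -0.67.

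**Figure D2:**
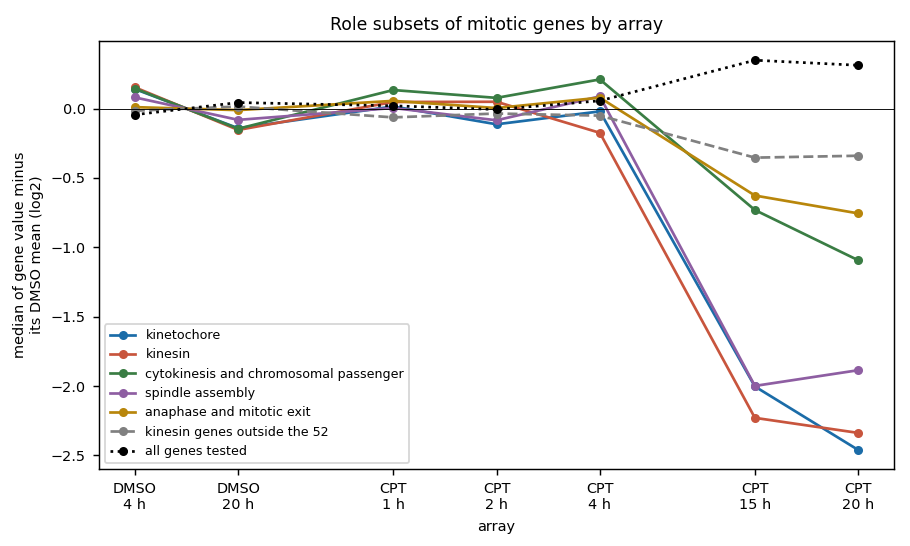
Median over the genes of each role of the gene value minus its mean on the 2 DMSO arrays (log2, vertical axis), on each of the 7 arrays in order of treatment and time, with kinesin genes outside the 52 and all tested genes as broken lines. All roles lie within 0.25 of 0 up to 4 h of CPT, and at 20 h the kinetochore genes reach -2.46, the kinesins -2.34 and the anaphase genes -0.76.

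The drop in the median of the 52 genes lies between 4 and 15 h of CPT. At 1, 2 and 4 h the median of the 52 genes relative to DMSO was 0.03, -0.04 and 0.05, and at 15 and 20 h it was -1.69 and -1.74. The kinetochore genes stood at -2.003 at 15 h and -2.46 at 20 h, and the kinesins at -2.23 and -2.34. The cytokinesis and passenger genes stood at -0.73 and -1.09, the spindle genes at -1.999 and -1.89, and the anaphase genes at -0.63 and -0.76. At matched times, 36 of the 52 genes were more than 2-fold lower in CPT than in DMSO cells at 20 h (11.2% of all tested genes), and none at 4 h (1.7%). Smaller differences were present at matched 4 h, where 31 of the 52 genes (59.6%) were lower, against 37.9% of all tested genes. By role, 14 of 19 kinetochore genes, 8 of 11 kinesins and 4 of 7 spindle genes were lower there. Of the cytokinesis and passenger genes 3 of 8 were, and of the anaphase genes 2 of 7. The median over the 52 genes was -0.06, with single genes between -0.95 (KIF18A) and 0.73 (BIRC5). These single-array differences have no replicate check. Between the DMSO arrays, 45 of the 52 genes were lower at 20 h than at 4 h, by a median of -0.20 and none by more than 2-fold, where 40.1% of all tested genes were lower. With the 4 h DMSO array left out 36 genes were lower in CPT late cells, and with the 20 h one left out 42 were.

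Most kept probe sets of these genes shared the late drop, while the dim ones among the 9340 in all were not counted. Of their 5343 kept probe sets 4033 (75.5%) had both late arrays below both DMSO arrays, against 27.5% of all kept probe sets. In 42 of the 52 genes more than 50% of the kept probe sets did so, and in FBXO5 3.70% did. The late mean of 19 of the 52 genes lay within 1 log2 unit of the median of all probe sets on the late arrays, 2.95, or below it, and the DMSO mean of none did. Over all tested genes 16.3% lay there by their late mean and 30.7% by their DMSO mean. The same number, 2.95, was the level that set kept probe sets apart from dim ones. With no filter on dim probe sets 17 of the 42 lower genes had differences smaller by a factor of more than 1.5, each given with its gene above. The median was then -1.57 for the kinetochore genes, -1.31 for the kinesins and -1.60 for the spindle genes. For the anaphase genes it was -0.99, larger in size than with the filter (-0.83). These roles thus lay closer together than with the filter.

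**Figure D3:**
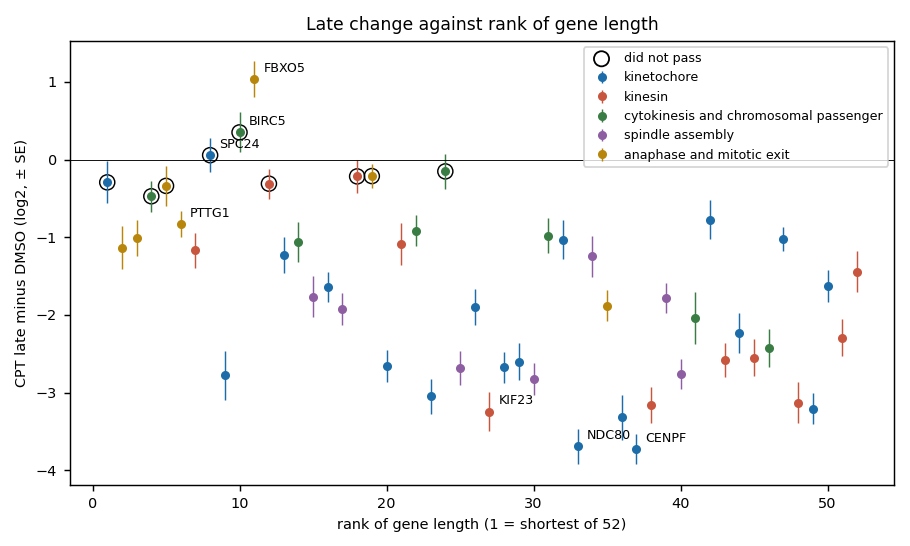
CPT late minus DMSO difference (log2, vertical axis, bars ± SE from limma) of the 52 genes against the rank of their gene length (1 is the shortest), coloured by role. Black rings mark the 9 genes that passed in neither direction, all of which lie among the 26 shorter genes, as does FBXO5.

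Gene length, taken from RefSeq and used only as a rank because the array's build is not given in the sources used here, went with the size of the drop. All 26 longer genes were lower in CPT late cells, with a median difference of -2.49. Of the 26 shorter genes 16 were lower, with a median difference of -1.04. Spearman's rho between length and difference was -0.52 over the 52 genes and -0.39 over 18014 tested genes, which share the same arrays. The level in DMSO cells had a rho of -0.42 with the difference over the 52 genes and -0.50 over all genes. That level is itself subtracted in the difference, so these measures are not independent and a negative rho can arise from this alone. The part of gene length or of the DMSO level in the result was not tested.

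Other genes of the same structures were listed by pathway, with earlier results of these data known. Of 17 further centromere and inner kinetochore genes 5 were lower and 1 was higher in CPT late cells, with a median difference of -0.33. Among them CENPC, which binds centromeric nucleosomes, had a difference of -1.62, and CENPU one of -1.29. Of 9 further checkpoint, corona and SKA genes 5 were lower and 1 was higher (median -0.96), among them SGO2 (-2.72) and SPDL1 (-2.59). Of 15 subunits and partners of the anaphase-promoting complex 7 were lower and 4 were higher (median -0.20), with CDC27 at -2.51 and ANAPC1 at -1.61. Of 14 gamma-tubulin ring and augmin genes 4 were lower and 4 were higher (median -0.35), with HAUS6 at -1.99 and TUBGCP3 at -1.96. Over these 55 genes 21 were lower and 10 were higher, with a median of -0.36. Over all tested genes 17.5% were lower and 33.5% were higher, with a median of 0.34. No test compared their share with that of the 52 genes.

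Kinesin genes outside the 52, most of them known for transport, moved in both directions. Of 21 such genes 10 were lower and 5 were higher in CPT late cells, with a median difference of -0.35. The shares over all tested genes were 17.5% lower and 33.5% higher. KIF2A, which takes microtubules apart and also acts at spindle poles, had means of 4.48 in CPT late and 7.57 in DMSO cells, and KIF21A had means of 3.44 and 6.27 in those groups. Their differences of -3.09 and -2.83 lay within the range of the 11 kinesins among the 52 genes.

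Markers of the labelled cells and of other cell types were counted beside these results. Of 12 epithelial genes, listed to check the labelled carcinoma cells, 1 was lower and 3 were higher in CPT late cells (median -0.01), and EPCAM averaged 7.65 in CPT late and 7.94 in DMSO cells. Of 10 fibroblast, 10 endothelial and 10 leukocyte genes, 4, 7 and 7 were higher (40%, 70% and 70%) and none was lower, against 33.5% of all tested genes higher. Their median differences were 0.51, 0.52 and 0.60, against 0.34 for all tested genes. In DMSO cells the epithelial genes lay between 3.62 and 7.94, the top value being EPCAM. Their median there was 4.35, against 4.32 for all tested genes, so EPCAM does not stand for the list. The fibroblast genes lay between 3.07 and 4.47 in DMSO cells and the endothelial genes between 3.23 and 4.27. The leukocyte genes lay between 3.42 and 10.9, the top value being LYZ. The part of these marker genes in the results was not tested. Array medians lay between 2.87 and 2.96. The correlation over all probe sets was 0.942 to 0.956 among DMSO and early arrays, 0.941 between the late arrays, and 0.845 to 0.908 between a late and another array.

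The arrays were made to read splice forms, so each kept probe set was also set relative to the value of its gene on the same array. Of the 5343 tested probe sets of the 52 genes 949 (17.8%) changed relative to their gene between CPT late and DMSO cells, against 7.39% of all tested probe sets. Of these, 584 were higher and 365 were lower. The measure takes in the change of the gene value, so a probe set that stayed level rose relative to a gene that fell. The median gene difference was -1.70 for the 52 genes and 0.34 for all tested genes. How much of these shares comes from the drop of the gene values was not tested. A probe set that was dim in the other groups could be kept through its late values alone. Among those whose mean over the 5 other arrays was also above 2.95, a condition added after the data were seen, 917 of 5294 changed (17.3%, against 7.38% over all genes), 552 of them higher. Without that condition, the 584 higher ones had a median level of 5.47 in CPT late and 5.20 in DMSO cells. The 365 lower ones had 3.53 in CPT late and 7.46 in DMSO cells. Of the 584 higher ones 348 also had a higher mean level in itself, 135 of them by more than 1 log2 unit, and the others fell less than their gene. The count was 591 without an intensity trend in the test, 333 on leaving out the 4 h DMSO array and 540 on leaving out the 20 h CPT array.

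**Figure D4:**
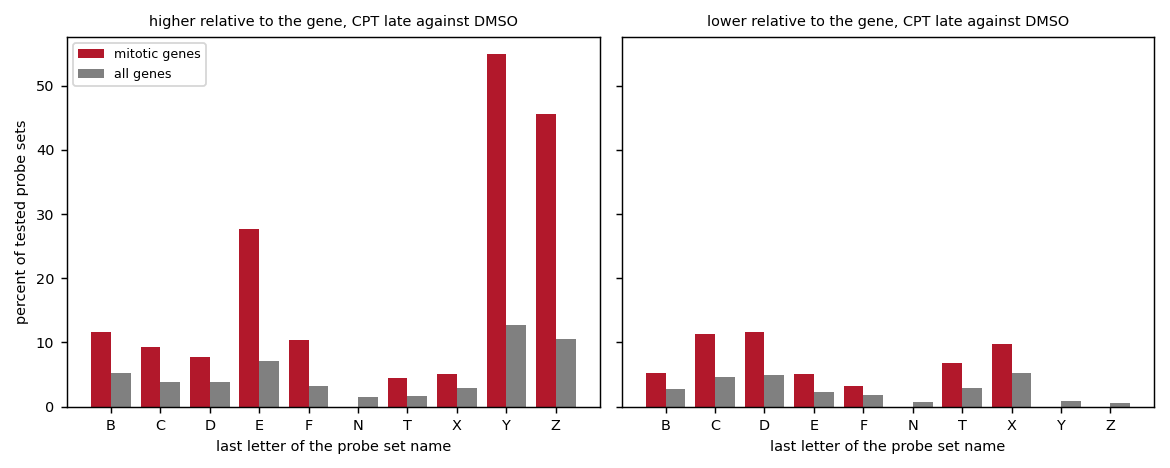
Share of tested probe sets (percent, vertical axis) that were higher (left panel) or lower (right panel) relative to their gene in CPT late against DMSO cells, by the last letter of the probe set's name, for the 52 mitotic genes (red) and all genes (grey). Among the mitotic genes the letters Y and Z have the tallest bars on the left, 54.9% and 45.5%, and none on the right.

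The probe sets differed by the letter that ends their name, whose meaning is not given in the sources used here. Of the 113 tested probe sets ending in Y, 62 (54.9%) were higher relative to their gene and none was lower, against 12.8% higher and 0.815% lower over all genes. Of the 123 ending in Z, 56 (45.5%) were higher and none was lower, against 10.5% higher and 0.626% lower over all genes. Of the 239 ending in E, 66 (27.6%) were higher and 12 (5.02%) were lower, against 7.05% higher and 2.3% lower over all genes. For the other letters found in these genes, between 4.38% (T) and 11.7% (B) were higher. Over all genes these letters had between 1.6% (T) and 5.25% (B) higher. With the condition on the 5 other arrays 53.8% of the probe sets ending in Y and 44.1% of those ending in Z were higher. The shares over all genes were then 12.4% and 10.15%. No test compared these shares, and the drop of the gene values enters them too.

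**Figure D5:**
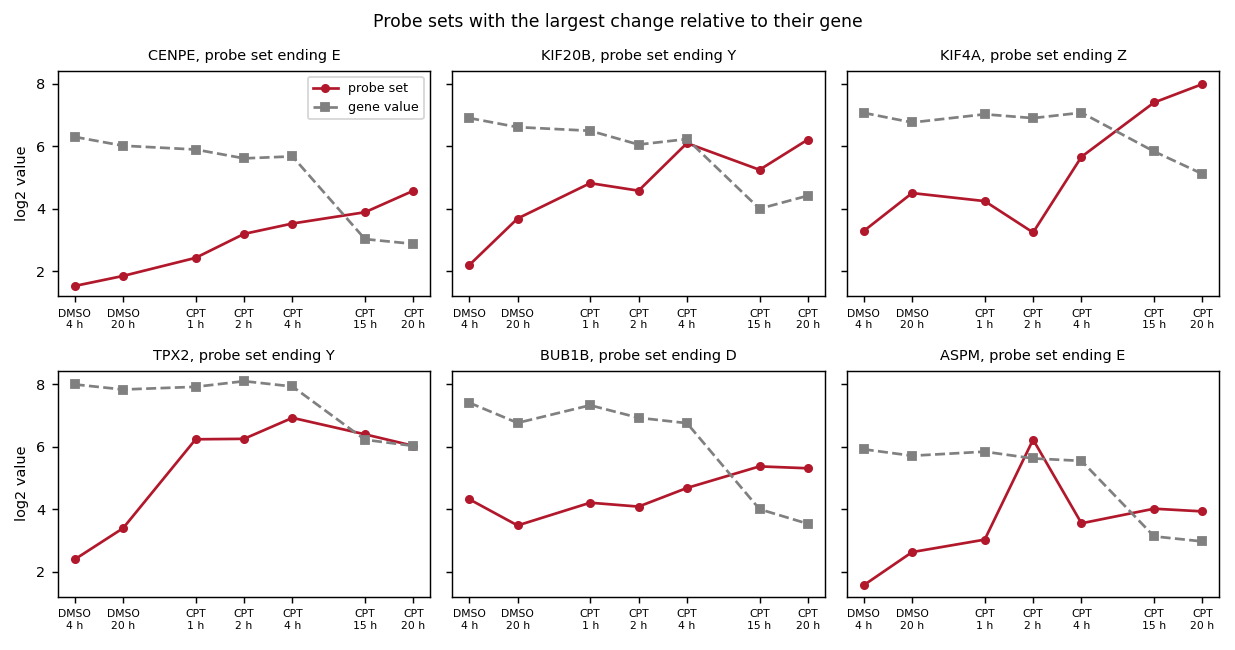
Level (log2, vertical axis) of the 6 probe sets with the largest change relative to their gene (red circles) and of the gene (grey squares) on each array, from DMSO at 4 and 20 h to CPT at 1 to 20 h. In all 6 panels the grey line drops at 15 h, and the TPX2 probe set is already at 6.24 at 1 h of CPT.

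The 6 probe sets with the largest relative change were all higher in CPT late cells. A probe set of CENPE ending in E stood at 3.90 and 4.58 at 15 and 20 h of CPT, against 2.44, 3.20 and 3.53 in CPT early cells and 1.54 and 1.86 in DMSO cells. Its mean over the 5 other arrays lay below 2.95 and it was kept through the late ones, so its relative change of 5.75 is given as a description, with no test. A probe set of KIF4A ending in Z stood at 7.41 and 7.997 in CPT late cells, against 4.25, 3.25 and 5.67 in CPT early cells and 3.29 and 4.51 in DMSO cells (relative change 5.24 ± 0.69, SE, adjusted p = 0.00046). It thus had its highest values where the gene had its lowest. A probe set of TPX2 ending in Y stood at 6.40 and 6.03 in CPT late cells, against 6.24, 6.25 and 6.93 in CPT early cells and 2.39 and 3.39 in DMSO cells. All 5 CPT arrays lay above both DMSO arrays, while the gene itself was lower in the late arrays alone. The mean of this probe set in DMSO cells, 2.89, lay below 2.95, and it was kept through the CPT arrays, early and late. Its relative change of 5.11 is therefore also given as a description, with no test. A probe set of KIF20B ending in Y stood at 5.25 and 6.22 in CPT late cells, against 4.83, 4.59 and 6.11 in CPT early cells and 2.20 and 3.69 in DMSO cells. A probe set of BUB1B ending in D stood at 5.37 and 5.31 in CPT late cells, against 4.21, 4.09 and 4.68 in CPT early cells and 4.32 and 3.48 in DMSO cells. The late arrays of both probe sets lay above both DMSO arrays, and for BUB1B also above the early ones. The sixth probe set, of ASPM and ending in E, stood at 4.02 and 3.93 in CPT late cells, against 3.03, 6.23 and 3.55 in CPT early cells and 1.57 and 2.63 in DMSO cells.

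The genes with the largest share of changed probe sets were AURKA, CDCA8 and KIF23. Of 122 tested AURKA probe sets 42 were higher and 23 were lower relative to the gene (53.3% in all). For CDCA8 there were 14 higher and 12 lower of 70 (37.1%), and for KIF23 20 higher and 20 lower of 112 (35.7%). The gene values of AURKA and CDCA8 thus summarise probe sets that moved by different amounts. AURKA is also 1 of 15 genes of the 52 for which RefSeq names a pseudogene, and probes shared with such copies were not tested.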

How the data were processed

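The deposited table holds the authors' normalized log2 values, 1 for each of 2108940 probe sets on each of 7 arrays; the log2 scale was read from the values (0.957 to 13.6). Per the submitters' processing notes the tools were RMA, Partek 6.08 and R 2.11.1, without roles. How background was corrected, how probes were summarised and which build was used is not given in the sources used here. Of 20649 leading numbers, 19570 were found in the RefSeq gene table (GRCh38.p14) and used. Probe sets with a mean above the median of all row means, 2.95, were kept, and a gene needed at least 3.

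From these values, gene medians were fitted over the 7 arrays (3 groups, no covariates) with limma 3.58.1 in R 4.3.3, with an intensity trend and Benjamini-Hochberg adjustment over 18017 genes. Relative values (probe set minus gene, genes with at least 5 kept probe sets) were fitted the same way over 1030440 probe sets. Both fits were tested on simulated data. The genes, role subsets and other lists were chosen with earlier results of these data known. Values on all arrays are given for up to 4 genes per role with the largest difference past the threshold for each gene that was not lower, and for the 6 most changed probe sets. Also named are the 2 most changed genes per other list and the 3 genes with the largest share of changed probe sets. EPCAM and LYZ were picked after their values were seen. Alternatives changed the filter, gene summary, normalization, eBayes settings, subsets and minimum of probe sets, or left out each array. Restricting genes to those with an agreeing platform symbol, and probe sets to those above the filter without the late arrays, was added after the data were seen.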

Additional observations from a re-analysis of the deposited data

Results flagged for a closer look

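The early and late CPT windows differed in a direct test of one against the other (limma, adjusted p under 0.05 over all tested genes): 45 of the 52 genes were lower and 1 was higher in CPT late than in CPT early cells. FBXO5 was that gene, with a difference of 1.20 on the log2 scale (adjusted p = 0.0018), higher on both late arrays than on each of the 3 early arrays. Over all tested genes 18.3% were lower and 36.3% were higher in this comparison. The groups hold 2 and 3 arrays, each at a different time.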

How the results depend on the processing

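With 7 arrays, no repeated time point and values near the dim end of the scale for many genes late in CPT, small differences could not be detected. No paired analysis was possible because the labels give no replicate numbers and CPT late and DMSO share 1 time, 20 h, as do CPT early and DMSO, 4 h. Counts of lower genes in CPT late against DMSO cells lay between 36 and 44 over 16 alternatives, and 33 of the 42 genes passed in all of them. DLGAP5 passed in the 15 that gave it a value. The count of higher genes was 0 with no filter on dim probe sets, 0 with a stricter filter, and 0 to 1 when 1 array was left out. The median difference from DMSO was -1.25 with no filter, -1.49 with the mean of kept probe sets and -1.94 with centred arrays, which moved all late differences by -0.24, and lay between -1.86 and -1.54 when 1 array was left out. Against CPT early cells the median was -1.34, -1.50 and -1.84 under those settings and -1.79 with a stricter filter, with a range of -1.78 to -1.59 when 1 array was left out. The count of probe sets changed relative to their gene was 591 without an intensity trend and 333 to 907 when 1 array was left out. The median of CPT early against DMSO cells, 0.03, turned to -0.0051 with a stricter filter and -0.02 after quantile re-normalization, and lay between -0.07 and 0.13 when 1 array was left out. No gene that passed turned its direction. The causes were not tested.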
